A study of Chlorocebus sabaeus with 10 samples.

Results

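The genes described are 9 genes of glycogen synthesis and breakdown in the liver of the vervet monkey (Chlorocebus sabaeus). They are GYS2, GBE1, UGP2, PGM1, PYGL, PPP1R3B, PPP1R3C, PHKA2 and GAA, and they were chosen by symbol from a table of 28078 transcripts with 23352 distinct symbols. Each of the 9 genes had 1 transcript in that table, and 8 of the 9 had enough counts to be tested, among 7948 tested transcripts. Liver was sampled by biopsy from 5 female monkeys fed a high fructose (HFr) diet and from 5 female monkeys fed chow. The study calls the animals age-matched. It reports a higher mean age on HFr than on chow, with no significant difference. All 10 animals ate chow before the study, the diets were given for 6 weeks, and each animal is represented by 1 RNA-Seq library of polyadenylated RNA. The composition of the diets and the time between the last meal and the biopsy are not given in the sources used here. Animals are called HFr 1 to 5 and chow 1 to 5.

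Glycogen is the branched glucose polymer in which the liver stores glucose after a meal and from which it supplies blood glucose between meals. Glucose 6-phosphate is turned by phosphoglucomutase into glucose 1-phosphate and by UGP2 into UDP-glucose, from which glycogen synthase extends chains that the branching enzyme GBE1 then branches. In breakdown, glycogen phosphorylase releases glucose 1-phosphate, while GAA digests glycogen inside lysosomes. Phosphorylase kinase switches phosphorylase on, and protein phosphatase 1, brought to glycogen by PPP1R3 subunits, reverses this and activates glycogen synthase. These enzymes are controlled to a large degree by phosphorylation and by metabolites, neither of which an RNA count measures.

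The libraries held 2977282 to 4992505 estimated counts each, of which 34.7% to 73.6% lay on mitochondrial transcripts and 864571 to 2657103 on nuclear ones. The mitochondrial share was 55.5% ± 11.8 (SD, n = 5) on HFr and 55.4% ± 16.5 on chow. Values below are normalized counts, that is, CPM after TMM scaling (trimmed mean of M values, which sets libraries of different depth and composition on 1 scale), and since transcript lengths were not used, levels are compared within a gene and not between genes. Hepatocyte RNA was present in all samples: 11 of 12 hepatocyte markers had enough counts to be tested. Their summed normalized count was 49537 to 75792 on HFr and 40379 to 80299 on chow. Between the diets, none of the 11 had an edgeR p under 0.05. Skeletal muscle, the other tissue rich in glycogen, left little trace, since none of its 7 markers had enough counts and 4 of them were at 0 in all 10 libraries. The summed markers of other cells overlapped between the diets, at 374 to 530 on HFr and 337 to 538 on chow for macrophages (8 of 10 tested, led by CD14 and LYZ), 16.0 to 26.6 and 16.0 to 23.0 for lymphocytes (4 of 9, CD2 and CCL5), 100.5 to 331 and 59.6 to 338 for blood cells (1 of 7, HBB), 2.44 to 14.8 and 3.54 to 20.5 for cholangiocytes (2 of 6, SOX9 and EPCAM), 222 to 403 and 178 to 819 for stellate cells and fibroblasts (6 of 9, DCN and COL1A2) and 343 to 457 and 263 to 450 for endothelial cells (8 of 9, STAB1 and STAB2). Of these markers, ACTA2 of stellate cells (log2 fold change -1.57, SE 0.49) and KDR of endothelium (log2 fold change 0.57, SE 0.19) had an unadjusted p under 0.05 in edgeR, beside 4.29% of all tested transcripts. Neither passed after adjustment, and both are named after their values were seen. The log2 fold change was negative in 5 of the 6 tested stellate cell and fibroblast markers. In the 8 tested endothelial markers it was positive in 5 and negative in 3. In a whole biopsy, fewer cells of a type and less RNA per cell cannot be told apart, and the part of other cells in the results below was not tested.

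None of the 8 tested glycogen genes passed the test for a difference between the HFr and chow diets. Of all 7948 tested transcripts, 4.29% had an unadjusted p under 0.05 in edgeR's quasi-likelihood test, and of the 8 glycogen genes 0 did. No transcript passed after Benjamini-Hochberg adjustment over all tested transcripts (0.0%), where the smallest adjusted p was 0.872. DESeq2 on the same transcripts gave an unadjusted p under 0.05 to 4.16% of them and an adjusted p under 0.05 to 2 (0.0252%), and no glycogen gene was among either. The 5 HFr values lay wholly above or below the 5 chow values in 0.541% of tested transcripts and in 0 of the 8 glycogen genes. The log2 fold change, HFr against chow, was positive in 3 of the 8 and negative in 5, with a median of -0.07, beside -0.00075 over all tested transcripts. Every one of the 8 intervals at 95% included 0, and these intervals show which sizes of difference remain possible: from -0.35 to 0.48 for GYS2, but from -1.98 to 0.86 for PPP1R3C. Adjusted p-values of the 8 genes were 0.9996 to 0.9999 (edgeR, Benjamini-Hochberg). A p that misses the threshold does not show that a gene was alike on both diets.

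**Figure D1:**
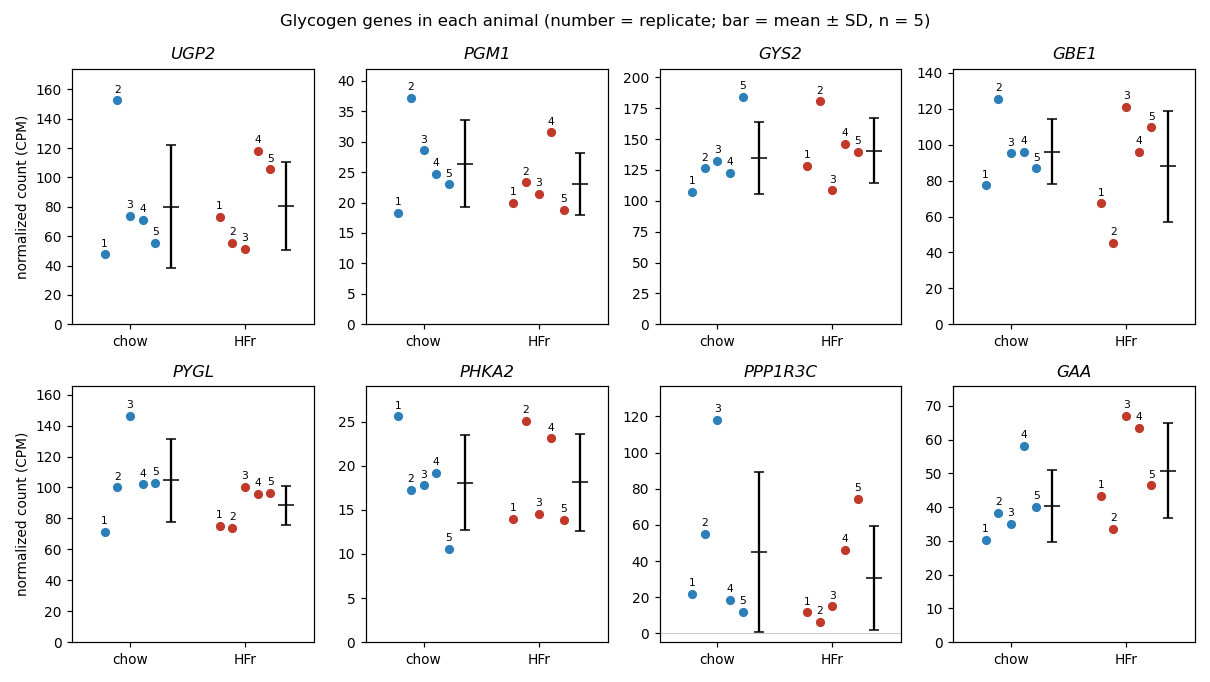
Normalized counts (CPM, linear axis from 0) of the 8 tested glycogen genes in each animal, blue for chow and red for HFr, with replicate numbers beside the points and the mean ± SD of 5 animals as a bar. The diets overlap in all 8 panels, and PPP1R3C has the widest spread, from 6.28 to 118.

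The first steps from glucose 6-phosphate to glycogen are those of PGM1 and UGP2. PGM1, a phosphoglucomutase, lies on chromosome 20 (69428996 to 69466191, minus strand, build ChlSab1.1, the build of all positions here). PGM1 stood at 19.97, 23.3, 21.4, 31.5 and 18.8 normalized counts in HFr 1 to 5 and at 18.3, 37.2, 28.6, 24.8 and 23.0 in chow 1 to 5. Only HFr 4 was above the chow mean of 26.4, and the ranges overlapped almost entirely. Its log2 fold change was -0.20 with an SE of 0.21 and an interval of -0.66 to 0.26, and it was -0.037 without chow 2, -0.31 without chow 1, -0.13 without HFr 5 and -0.35 without HFr 4. UGP2, which makes UDP-glucose, the activated sugar that glycogen synthase uses, lies on chromosome 14 (43128055 to 43180569, minus strand). UGP2 reached 73.1, 55.4, 51.2, 118 and 106 normalized counts in HFr 1 to 5 and 47.8, 153, 73.7, 71.3 and 55.6 in chow 1 to 5. HFr 4, HFr 5 and chow 2 were high and the other 7 animals lay between 47.8 and 73.7, so that high animals occurred on both diets. The UGP2 means were 80.7 ± 29.97 on HFr and 80.2 ± 41.9 on chow (SD, n = 5). Its log2 fold change of 0.01 (SE 0.32, interval -0.68 to 0.70) became -0.13 when counts were scaled by library size alone. With single animals left out it ran from -0.18 (without HFr 4) to 0.38, and its sign reversed in 7 of 22 alternatives.

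GYS2, the liver form of glycogen synthase and the enzyme that extends the chains, was the steadiest of the 8 genes. Its locus is on chromosome 11 (21398869 to 21463277, minus strand). GYS2 measured 128, 181, 109, 146 and 139 normalized counts in HFr 1 to 5 and 107, 126, 132, 123 and 184 in chow 1 to 5. The highest animal exceeded the lowest by 1.72-fold, and each diet had 1 animal above 180 (HFr 2 and chow 5). The means were 141 ± 26.5 and 135 ± 29.3 (SD, n = 5). Its log2 fold change was 0.07 with an SE of 0.20, and it fell slightly below 0 when HFr 2 or chow 1 was left out.

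GBE1, the branching enzyme, lies on chromosome 22 (95229133 to 95504840, plus strand). GBE1 gave 67.4, 45.3, 121, 96.0 and 109.8 normalized counts in HFr 1 to 5 and 77.5, 125, 95.2, 96.0 and 86.9 in chow 1 to 5. HFr 2 and HFr 1 were the lowest of all 10 animals, while HFr 3 and HFr 5 were among the 3 highest. Spread was 2.67-fold within HFr and 1.62-fold within chow, and the log2 fold change was -0.13 with an SE of 0.25 and an interval of -0.66 to 0.40, or 0.035 without HFr 2.

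Of the remaining synthesis genes of the list written for this pathway, too few were tested to read a count of calls as a result. Of 5 (GYG1, GYG2, GYS1, PGM2 and PGM2L1) 2 were tested, and 0 had an edgeR p under 0.05 in either direction. GYS1, the glycogen synthase of muscle and most other tissues, had a log2 fold change of -0.21 (SE 0.19). GYG2, the liver glycogenin that primes a new glycogen particle, stayed between 11.4 and 14.7 normalized counts in all 10 animals, with a log2 fold change of -0.08 (SE 0.17). GYG1, PGM2 and PGM2L1 summed to 17, 94 and 2 counts over the 10 libraries and were too low to test.

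PYGL, the liver glycogen phosphorylase that starts breakdown, is on chromosome 24 (27987649 to 28030869, minus strand). PYGL came to 75.4, 74.0, 100.5, 95.7 and 96.7 normalized counts in HFr 1 to 5 and to 71.3, 100.1, 147, 102 and 103 in chow 1 to 5. All 5 HFr animals lay below the chow mean of 105, yet chow 1 was the lowest of the 10, and the upper end of chow was set by chow 3. The log2 fold change was -0.24 with an SE of 0.20 and an interval of -0.67 to 0.18. Leaving out single animals kept it between -0.35 (without chow 1) and -0.09 (without chow 3).

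PHKA2, the liver alpha subunit through which phosphorylase kinase is regulated, lies on the X chromosome (17333657 to 17422457, minus strand). PHKA2 was found at 13.9, 25.1, 14.5, 23.1 and 13.8 normalized counts in HFr 1 to 5 and at 25.6, 17.3, 17.8, 19.2 and 10.6 in chow 1 to 5. HFr fell apart into a pair near 24 and 3 animals near 14, and both the highest and the lowest animal were on chow. Its means were 18.1 ± 5.53 and 18.1 ± 5.36 (SD, n = 5), with a log2 fold change of -0.00082 (SE 0.25, interval -0.53 to 0.53) whose sign depended on the method.

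The tested partners of these breakdown enzymes are too few to read a count of calls against the 4.29% over all tested transcripts. Of the 3 other breakdown genes 2 were tested and 0 had an edgeR p under 0.05. PYGB, the brain form of phosphorylase, had a log2 fold change of -0.13 (SE 0.22). PYGM, the muscle form, had 1 to 8 counts per library. Of the 7 other phosphorylase kinase genes, calmodulins included since calmodulin is its calcium-sensing subunit, 6 were tested and 0 had an edgeR p under 0.05. Of their log2 fold changes 3 were positive and 3 negative. PHKA1, the muscle alpha subunit, had 0.29 (SE 0.37), the beta subunit PHKB -0.16 (SE 0.19) and PHKG2, the liver catalytic subunit, -0.11 (SE 0.23). CALM2 and CALM3 had 0.08 (SE 0.17) and 0.03 (SE 0.16). PHKG1, the muscle catalytic subunit, summed to 9 counts and was not tested.

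**Figure D2:**
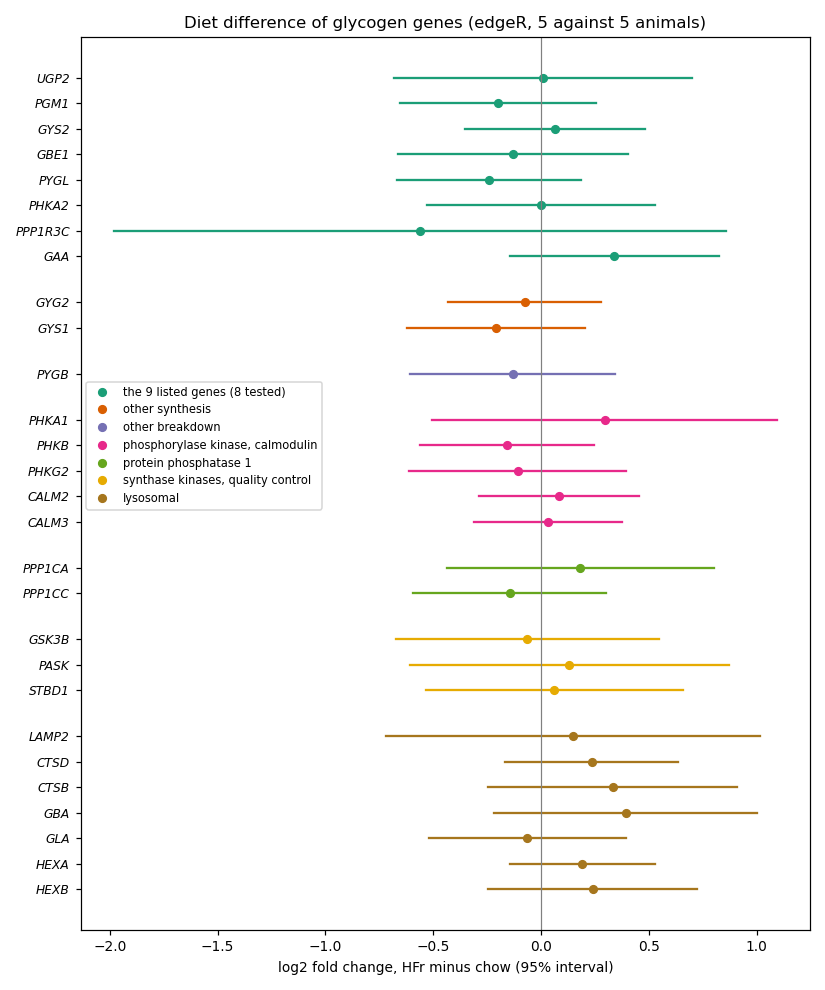
Log2 fold change, HFr minus chow (x axis), with its 95% interval for the 8 tested glycogen genes and for tested genes of the related lists, coloured by list. All intervals shown cross 0, and that of PPP1R3C is the widest, from -1.98 to 0.86.

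PPP1R3C, also called protein targeting to glycogen, carries protein phosphatase 1 to the glycogen particle, and it was the most variable of the 8 genes. It lies on chromosome 9 (84918591 to 84923334, minus strand). PPP1R3C spanned 11.7, 6.28, 14.9, 46.2 and 74.4 normalized counts in HFr 1 to 5 and 21.9, 55.0, 118, 18.7 and 11.9 in chow 1 to 5. Its range was 18.8-fold over all animals, 11.8-fold within HFr and 9.90-fold within chow, so that animals on the same diet differed far more than the diet means of 30.7 ± 29.0 and 45.2 ± 44.1 (SD, n = 5). The underlying counts were 26 to 645 per library.

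The log2 fold change of PPP1R3C was -0.56 with an SE of 0.66. Chow 3, the highest animal, decided its sign: without it the value was 0.18, and over all single omissions it ran from -1.20 (without HFr 5) to 0.18, with -0.37 without HFr 1 and -0.30 without HFr 2. With the mitochondrial share of counts as a covariate it was -0.25. The SD of its log2 normalized count within a diet was 1.34, which exceeded that of 99.5% of tested transcripts and of 99.2% of the 1417 tested transcripts whose mean was within 1.5-fold of its own. The same SD was 0.28 for GYS2, above 25.9% of tested transcripts, and 0.30 for PYGL, above 31.1%. UGP2 came second among the glycogen genes with 0.59, above 86.0% of tested transcripts.

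PPP1R3B, the targeting subunit known as the main one of liver in rodents, was hardly counted. It is listed on chromosome 8 (9922735 to 9923592, plus strand) as an interval of 858 bases. Its counts were 1, 1, 0, 0 and 2 in HFr 1 to 5 and 0, 0, 0, 1 and 0 in chow 1 to 5, a sum of 5. A count of 0 allows up to 3 counts, which is a normalized count of 0.550 to 1.52 depending on the library (counting error only), so the gene was at or near the limit of this depth in all 10 animals and no fold change is given. Whether reads of the rest of its transcript fell outside the listed interval was not tested.

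The other targeting subunits had few counts as well. Of 8 further phosphatase genes 2 were tested and 0 had an edgeR p under 0.05, beside 4.29% of all tested transcripts. The tested genes of this paragraph are too few to read such a count as a result. The catalytic subunits PPP1CC and PPP1CA had log2 fold changes of -0.14 (SE 0.21) and 0.18 (SE 0.29), and PPP1CB summed to 34 counts. PPP1R3G, a targeting subunit of liver and other tissues, had 3 to 24 counts per library (sum 103) and PPP1R3F 3 to 16, PPP1R3D had 1 count in all, and PPP1R3A and PPP1R3E had none. Among 7 glycogen synthase kinases and glycogen quality control genes 3 were tested and 0 had an edgeR p under 0.05, again beside 4.29%. STBD1, which binds glycogen and tethers it to membranes, had a log2 fold change of 0.06 (SE 0.28), the kinase PASK 0.13 (SE 0.34) and the kinase GSK3B -0.06 (SE 0.28). EPM2A and NHLRC1, whose products form the laforin and malin pair, summed to 4 and 11 counts, and GSK3A and CSNK2A1 were not found by symbol.

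GAA, the acid alpha-glucosidase that digests glycogen in lysosomes, had the largest positive difference of the 8 genes, though it did not pass the test. The gene lies on chromosome 16 (72067267 to 72083349, plus strand). GAA read 43.3, 33.6, 67.0, 63.5 and 46.5 normalized counts in HFr 1 to 5 and 30.4, 38.3, 35.0, 58.1 and 39.98 in chow 1 to 5. In HFr 4 of 5 animals were above the chow mean of 40.4, and HFr 3 and HFr 4 were above every chow animal, but HFr 2 was lower than 4 of the 5 chow animals. The means were 50.8 ± 14.1 and 40.4 ± 10.6 (SD, n = 5). Its log2 fold change was 0.34 with an SE of 0.23 and an interval of -0.14 to 0.82. Leaving out HFr 3 gave 0.21 and leaving out HFr 4 gave 0.24. Without chow 4 it was 0.49, with an unadjusted edgeR p of 0.043 and an adjusted p of 0.998, and this was the sole alternative in which any of the 8 genes had an unadjusted p under 0.05.

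Of 10 lysosomal genes listed as partners of GAA, 8 were tested. 6 had a positive log2 fold change and 2 a negative one, with a median of 0.21. Of the 8, 0 had an edgeR p under 0.05, beside 4.29% of all tested transcripts, too few genes to read this count as a result. Of the macrophage markers, 8 of 8 tested also had a positive log2 fold change (median 0.14), and 0 had an edgeR p under 0.05. It was also positive in 8 of 11 tested hepatocyte markers (median 0.12) and 5 of 8 endothelial ones (median 0.20). In 5 of 6 stellate cell and fibroblast markers (median -0.35) and 2 of 2 cholangiocyte markers it was negative. Over all 7948 tested transcripts it was positive in 3958. The part of macrophages or other cells in the values of GAA and the lysosomal genes was not tested. The protease cathepsin D gene CTSD was at 289 to 461 normalized counts on HFr and 247 to 359 on chow (log2 fold change 0.23, SE 0.19). HEXA, a lysosomal hexosaminidase, was at 16.6 to 23.8 and 16.1 to 18.3 (log2 fold change 0.19, SE 0.16).

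RNA of a synthesis gene was set against that of a breakdown gene by their count ratio within each animal. This ratio does not depend on how libraries are scaled, and it does not measure the balance of synthesis and breakdown itself. Only its difference between animals is read, since the size of a ratio also depends on transcript length, and reads that fit both genes of a related pair such as GYS2 and GYS1 or PYGL and PYGB may have been divided between them by estimation. The GYS2 to PYGL count ratio was 1.70, 2.44, 1.08, 1.53 and 1.44 in HFr 1 to 5 and 1.502, 1.26, 0.904, 1.20 and 1.79 in chow 1 to 5. 4 of 5 HFr animals were above the chow mean, but the ranges overlapped. On the log2 scale the means were 0.66 ± 0.42 on HFr and 0.38 ± 0.37 on chow, a difference of 0.28 (two-sided exact permutation test, p = 0.310). The difference was 0.13 without HFr 2, 0.15 without chow 3 and 0.42 without HFr 3. The smallest p that this permutation design allows is 0.0079.

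The ratio of liver to general glycogen synthase, GYS2 to GYS1, ran from 4.31 to 5.88 on HFr and from 2.58 to 5.88 on chow. All 5 HFr animals exceeded the chow mean on the log2 scale, where the means were 2.36 ± 0.20 and 2.09 ± 0.48, and the difference was 0.27 (exact permutation p = 0.294). Without chow 1, which had the lowest ratio, the difference was 0.092. PYGL to PYGB ran from 0.379 to 0.680 on HFr and from 0.251 to 0.847 on chow, with a log2 difference of -0.11 (exact permutation p = 0.786). Adjusted over the 3 ratios, the p-values of these permutation tests were 0.464, 0.464 and 0.786.

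**Figure D3:**
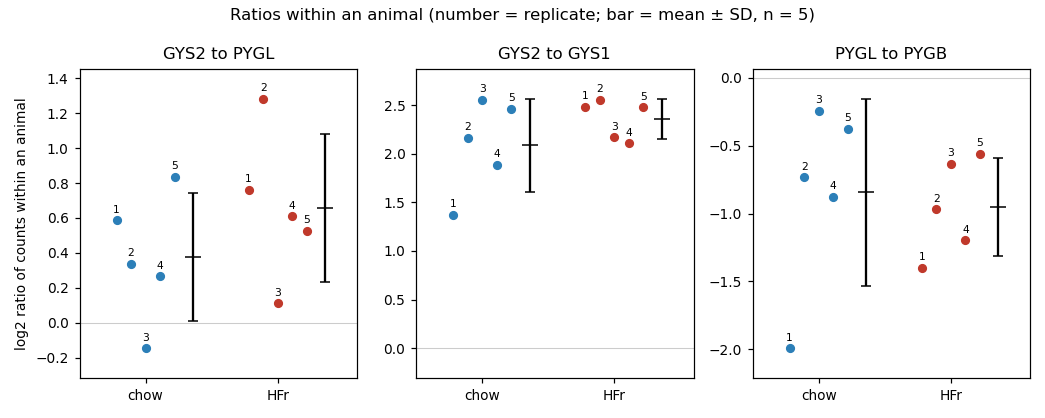
Log2 ratio of estimated counts (pseudocount 1) of 2 genes within each animal, blue for chow and red for HFr, with replicate numbers and the mean ± SD of 5 animals. The diets overlap in all 3 panels, and chow 1 has the lowest ratio of GYS2 to GYS1 and of PYGL to PYGB.

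The genes also differed among the 10 animals irrespective of diet. Ordered by PPP1R3C, the animals were HFr 2, HFr 1, chow 5, HFr 3, chow 4, chow 1, HFr 4, chow 2, HFr 5 and chow 3, so both diets were present at each end. Among the 28 pairs of glycogen genes, Pearson's r of log2 normalized counts ran from -0.48 to 0.67 with 19 positive, and 0 pairs passed after adjustment over the 28. 4 pairs had an unadjusted permutation p under 0.05, and 3 of these held PPP1R3C. PPP1R3C and PYGL had r = 0.66 (permutation p = 0.033, adjusted 0.334) and rho = 0.33 (permutation p = 0.350), with r = 0.53 without chow 3 and chow 1. PPP1R3C and UGP2 had r = 0.64 (permutation p = 0.048, adjusted 0.334) and rho = 0.59 (permutation p = 0.080), with r = 0.61 without chow 2 and HFr 4. PPP1R3C and GBE1 had r = 0.63 (permutation p = 0.045, adjusted 0.334) and rho = 0.58 (permutation p = 0.089), and r was 0.25 without HFr 2 and HFr 1. UGP2 and PGM1, the neighbouring steps, had r = 0.67 (permutation p = 0.034, adjusted 0.334) and rho = 0.61 (permutation p = 0.068), but r was 0.01 without chow 2 and HFr 4, so that the relation rested on those 2 animals. The main enzymes of synthesis and breakdown, GYS2 and PYGL, had r = 0.0034 (permutation p = 0.992, adjusted 0.997) and rho = 0.13 (permutation p = 0.733), with r = 0.34 without chow 5 and HFr 2. In the 8 genes, r with the mitochondrial share of counts ran from -0.46 for PPP1R3C to 0.58 for GAA, and 0 of 8 passed after adjustment. Without the 2 animals farthest from the median share, chow 2 and HFr 2, the r of PPP1R3C with that share was -0.84. Over all 10 animals its rho was -0.32 (permutation p = 0.370), and r was -0.83 within chow but -0.03 within HFr.

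Glycogen genes were then set beside genes whose RNA is known to move between feeding and fasting, and beside genes that bring glucose 6-phosphate in or out, a comparison chosen after the values were seen. Of 192 relations (8 glycogen genes with 24 tested genes), 29 had an unadjusted permutation p under 0.05. By Pearson's r 4 passed after adjustment over the 192, and by Spearman's rho 0 did. GYS2 took part in none of the 29, UGP2 in 10, and GBE1 and PPP1R3C in 5 each. All points share the libraries, their depth and their scaling factors.

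UGP2 rose and fell with SREBF1, the transcription factor that insulin induces to drive fat synthesis, with r = 0.92 (permutation p = 9e-05, adjusted 0.017) and rho = 0.88 (permutation p = 0.0015, adjusted 0.074). SREBF1 was at 41.1, 17.7, 21.0, 95.1 and 89.2 normalized counts in HFr 1 to 5 and at 24.9, 112, 65.5, 60.1 and 18.8 in chow 1 to 5. The 3 animals highest for UGP2, which were chow 2, HFr 4 and HFr 5, were also the 3 highest for SREBF1. Without HFr 2 and chow 5, the 2 animals farthest from the SREBF1 median, the r was 0.94. That r kept chow 2, HFr 4 and HFr 5, the highest for UGP2. It was 0.92 after each diet was centered on its mean and 0.91 after the mitochondrial share was regressed out. UGP2 with GALK1, the galactokinase of the galactose route into UDP-glucose, had r = 0.90 (permutation p = 0.00064, adjusted 0.031) and rho = 0.78 (permutation p = 0.011, adjusted 0.163), with r = 0.72 without chow 2 and HFr 4. UGP2 had r = 0.85 with FASN, the fatty acid synthase (permutation p = 0.0019, adjusted 0.062, rho = 0.83, permutation p = 0.0045), which did not pass, and without chow 2 and chow 1 this r was 0.69.

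PPP1R3C ran opposite to ANGPTL4, a lipase inhibitor whose RNA rises in fasting, with r = -0.90 (permutation p = 0.00041, adjusted 0.031) and rho = -0.89 (permutation p = 0.0011, adjusted 0.074). ANGPTL4 was at 166, 136, 146, 72.2 and 50.4 normalized counts in HFr 1 to 5 and at 64.2, 75.1, 36.1, 109 and 113 in chow 1 to 5. Chow 3, highest for PPP1R3C, was lowest for ANGPTL4, and the 5 animals lowest for PPP1R3C were the 5 highest for ANGPTL4. The r was -0.85 without chow 3 and HFr 1, -0.90 after centering each diet and -0.87 after regressing out the mitochondrial share. When libraries were scaled by their totals alone, it was -0.63 with an adjusted permutation p of 0.135, so this relation depended on the scaling. The other 3 relations that passed had an r of 0.87 to 0.94 and an adjusted permutation p of 0.012 to 0.029 under that scaling. With totals alone, however, 22 of the 192 relations passed after adjustment, against 4 with TMM. The correlations of 7 glycogen genes with the mitochondrial share then passed too, against 0 with TMM. The part of that share in these r values was not tested, so they do not decide whether any relation holds.

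PPP1R3C also had r = 0.86 with THRSP, a lipogenic gene of the fed liver (permutation p = 0.0024, adjusted 0.066, rho = 0.82, permutation p = 0.0058), and r = 0.85 with FGF21, a hormone of the liver (permutation p = 0.0015, adjusted 0.056, rho = 0.75, permutation p = 0.017), and neither passed. The r was 0.89 for THRSP without HFr 2 and chow 1 and 0.62 for FGF21 without chow 3 and HFr 5. FGF21 was at 1 to 3 counts in 5 of the 10 animals and THRSP in 3, at or below the floor of 3 counts, so these points lie at the limit of the depth. GAA went with ACACA, the acetyl-CoA carboxylase of fat synthesis, with r = 0.89 (permutation p = 0.0006, adjusted 0.031) and rho = 0.93 (permutation p = 0.00037, adjusted 0.071), and with r = 0.90 without HFr 2 and HFr 3. ACACA was at 5.83 to 14.9 normalized counts in the 10 animals, with the lowest value in HFr 2 and the highest in HFr 3.

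**Figure D4:**
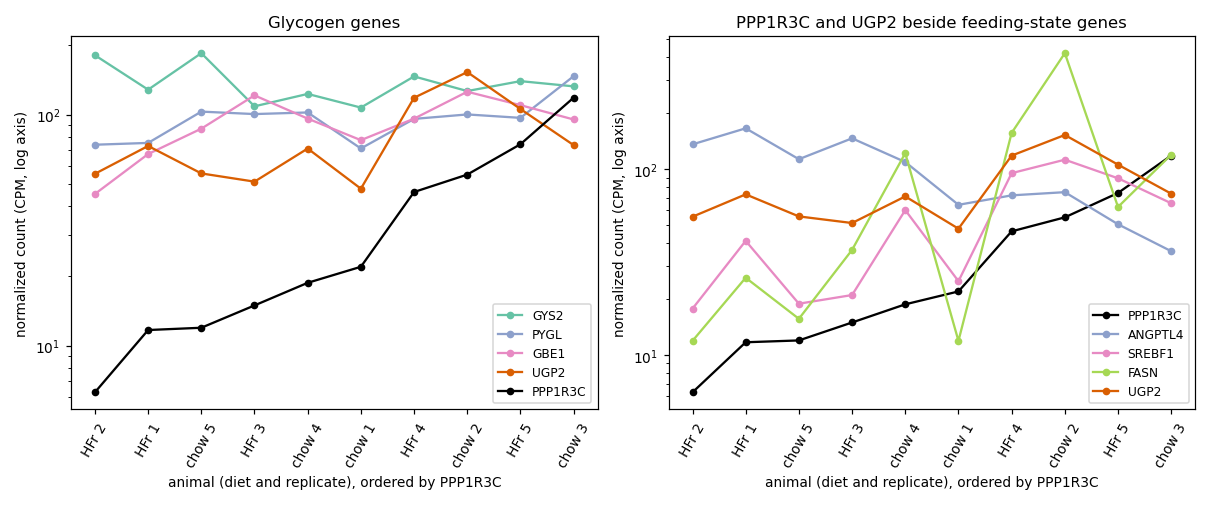
Normalized counts (CPM, log axis) in the 10 animals ordered by PPP1R3C, for glycogen genes (left) and for PPP1R3C and UGP2 beside feeding-state genes (right). ANGPTL4 goes from 136 at the low end of PPP1R3C to 36.1 at its high end, while GYS2 stays between 107 and 184.

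**Figure D5:**
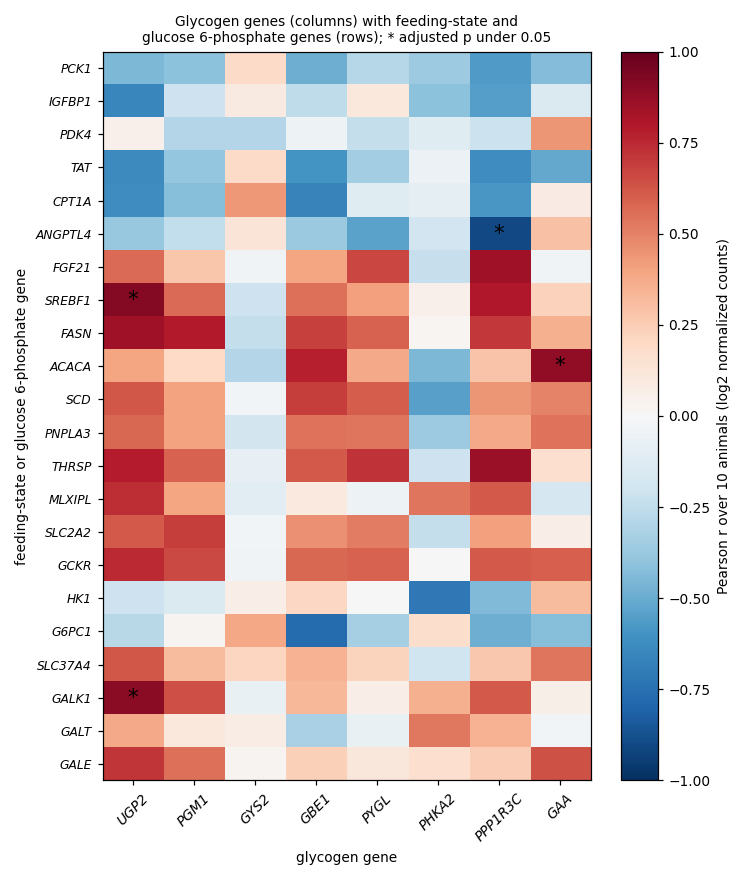
Pearson's r over 10 animals of the log2 normalized counts of the 8 tested glycogen genes (columns) with feeding-state and glucose 6-phosphate genes (rows, not all of the 24 are shown), blue for negative and red for positive. Asterisks mark the 4 of 192 relations whose permutation p passed after adjustment, 2 of them with UGP2 and 1 each with PPP1R3C and GAA.

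Genes of substrate supply and of hormonal input were also compared between the diets, where 4.29% of all tested transcripts had an edgeR p under 0.05. Of 11 genes of glucose 6-phosphate entry and exit 9 were tested, 8 with a positive log2 fold change, and 0 had an edgeR p under 0.05. SLC2A2, the main glucose transporter of the hepatocyte, was at 140 to 204 normalized counts on HFr and 151 to 309 on chow, and no HFr animal reached the average of chow (log2 fold change -0.45, SE 0.21). SLC37A4, the transporter that takes glucose 6-phosphate to glucose 6-phosphatase, was at 91.9 to 144 normalized counts on HFr, where each animal exceeded the average of chow, and at 63.5 to 120 on chow (log2 fold change 0.37, SE 0.19). GCKR, a regulator of glucose phosphorylation, had a log2 fold change of 0.27 (SE 0.36).

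Of 15 genes of glucagon, adrenergic and insulin input 9 were tested, and 1 had an edgeR p under 0.05, lower on HFr (2.23% of all tested transcripts were). This was PDE3B, the phosphodiesterase by which insulin lowers cyclic AMP, at 24.1, 37.9, 28.6, 19.99 and 28.5 normalized counts in HFr 1 to 5 and 54.2, 36.8, 34.3, 31.8 and 37.2 in chow 1 to 5. No HFr animal reached the average of chow (38.9), but HFr 2 lay within the chow range. Its log2 fold change was -0.48 with an SE of 0.20 and an unadjusted edgeR p of 0.032, and its adjusted p was 0.9996. The unadjusted edgeR p was 0.228 with library size alone (log2 fold change -0.47), 0.067 without HFr 1 (-0.44), 0.075 without HFr 4 (-0.39) and 0.111 without chow 1 (-0.33). GCGR, the glucagon receptor, had a log2 fold change of 0.30 (SE 0.29), and the insulin signalling genes IRS2 and AKT2 had -0.75 (SE 0.51) and 0.30 (SE 0.23).

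Of 16 feeding-state genes 15 were tested, 2 had an edgeR p under 0.05 and both were higher on HFr (2.06% of all tested transcripts were). Of these, PDK4, the kinase that spares pyruvate in fasting, had a log2 fold change of 0.75 (SE 0.26), and neither gene passed after adjustment. In PDK4 each HFr animal exceeded the average of chow (113), and with library size alone it missed the unadjusted threshold, with an edgeR p of 0.054. PCK1 and IGFBP1, which insulin represses, had log2 fold changes of -0.12 (SE 0.28) and -0.46 (SE 0.59). None of the 8 glycogen genes passed after adjustment in its correlation with PDK4, PCK1 or IGFBP1 over the 10 animals.

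Over the 10 animals the transcripts most like GYS2 were STRADA (r = 0.90), MSRA (r = 0.90), GSPT2, AHCY and UTP3 (r from 0.83 to 0.84), and those most like PYGL were GBP1 (r = 0.91), ESD (r = 0.89), KLF10 (r = 0.88), BCL3 (r = 0.88) and AGMAT (r = 0.88). They are the 5 highest Pearson's r of log2 normalized counts for each, out of all tested transcripts, and are given as a description with no test. No gene was on both lists, and no other glycogen gene was on either.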

How the data were processed

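Liver biopsies of 10 female vervets, 5 on HFr and 5 on chow, gave 1 stranded RNA-Seq library each, read as paired ends of 100 bases. The estimated counts were deposited by the authors, who aligned reads to ChlSab1.1, used Ensembl transcripts and estimated transcript counts by expectation-maximization in Partek Flow. The submitters' processing notes name CASAVA 1.8, FastQC, STAR 2.5.3a and Partek. The authors also deposited a TMM-normalized signal per transcript, used here for an alternative. Transcript positions are the listed ones, counted from 1 with the listed stop excluded.

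Rounded counts that passed filterByExpr (a minimum of 10 counts, and of 15 in total) entered edgeR's quasi-likelihood test with TMM scaling and diet alone in the model. A standard error is the size of the log2 fold change divided by the square root of F. All 95% intervals use the same 14.1 degrees of freedom. This is the median of the values solved from p and F over a subset of tested transcripts. P-values were adjusted by Benjamini-Hochberg over all 7948 tested transcripts at a threshold of 0.05. Totals of 2977282 to 4992505 counts limit the precision of low genes, and floors of 3 counts cover counting error only. Within an animal, log2 ratios used a pseudocount of 1 and two-sided exact permutation tests. Correlations used log2 normalized counts (pseudocount 1) and 100000 permutations. Both were adjusted within their family.

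The 9 genes and all lists were chosen with earlier results of these data known. Named are all 9 genes, the genes of each related list with an unadjusted p under 0.05 plus its 3 most abundant tested genes, the 2 most abundant markers of each other cell type, and the 5 transcripts most like GYS2 and PYGL. The procedure was tested on simulated data. Alternatives were DESeq2, other scalings, filters, summing by symbol, no rounding, a replicate block, mitochondrial transcripts left out or their share as a covariate, limma on the deposited signal with a pseudocount of 1 or 0.1, and each animal left out. Some genes that this rule or these lists include are not reported here. No transcript or genome sequence and no transcript length was used here. Software was Python 3.11.15 with numpy 2.4.6 and scipy 1.17.1, and R 4.3.3 with DESeq2 1.42.0, limma 3.58.1 and edgeR 4.0.16.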

Additional observations from a re-analysis of the deposited data

Results flagged for a closer look

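Within a diet, 4 values stood apart from the other 4 animals by Dixon's criterion, out of 76 groups of 5 examined, and chance marks about 1 group in 20. UGP2 was at 153 normalized counts in chow 2, beside 47.8 to 73.7 in the other chow animals. CALM2, one of the calmodulin genes, was at 50.4 in chow 2, beside 66.2 to 70.4. PDE3B was at 54.2 in chow 1, beside 31.8 to 37.2. GCGR, the glucagon receptor, was at 297 in HFr 4, beside 122 to 169 in the other HFr animals.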

How the results depend on the processing

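Over 22 alternatives the number of glycogen genes with an adjusted p under 0.05 stayed at 0, and the number with an unadjusted p under 0.05 was 0 in 21 and, over the omissions of single animals, 0 to 1 (GAA without chow 4). PGM1 and PYGL kept a negative and GAA a positive log2 fold change in all 22, though single omissions moved them from -0.35 to -0.037, -0.35 to -0.088 and 0.21 to 0.49. The mitochondrial share as covariate gave -0.25 for PPP1R3C. The sign of PHKA2, near 0 throughout, turned positive with DESeq2 (0.00092), DESeq2 size factors (0.00073), any count above 0 (0.0022), at least 10 counts in every animal (0.0061), the replicate block (0.0081), the mitochondrial share as covariate (0.00080) and limma with a pseudocount of 1 (0.037) or 0.1 (0.041). With single animals left out, log2 fold changes ran from -0.15 to 0.16 for PHKA2, -0.040 to 0.20 for GYS2, -0.28 to 0.035 for GBE1, -0.18 to 0.38 for UGP2 and -1.20 to 0.18 for PPP1R3C, and the log2 ratio of PYGL to PYGB from -0.40 to 0.043, of GYS2 to PYGL from 0.13 to 0.42 and of GYS2 to GYS1 from 0.092 to 0.39. Library size alone gave -0.13 for UGP2. The number of transcripts with an unadjusted p under 0.05, 341 in edgeR, was 123 with library size alone, 756 of 16066 with any count above 0 (more transcripts tested) and 260 to 408 with single animals left out. Genes of the related lists with an unadjusted p under 0.05, 3 in edgeR, were 1 with library size alone and 3 to 5 with animals left out. With library size alone, correlations passing after adjustment went from 0 to 7 of 8 for the mitochondrial share, from 0 to 10 of 28 for pairs of glycogen genes and from 4 to 22 of 192 for feeding-state and glucose 6-phosphate genes, scalings that were chosen after seeing the data. The cause of these differences was not tested. Same-numbered animals of the 2 diets did not deviate together (r of -0.04, -0.01, -0.04, 0.10 and -0.29 for numbers 1 to 5). The sample labels do not say whether equal numbers pair animals, and these r values cannot exclude a pairing. The numbers are used here as names only. The replicate block gave 271 transcripts and 0 glycogen genes with an unadjusted edgeR p under 0.05. The planned ratio of PPP1R3C to PPP1R3B was not run, as PPP1R3B had 0 to 2 counts. Depth limits the lowest genes: 3 counts correspond to 0.550 to 1.52 normalized counts.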
